A study of Homo sapiens with 6 samples.

Results

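The 10 genes of the vascular endothelial growth factor (VEGF) system were examined in mRNA-seq data of Kasumi-1 cells. They were chosen by name, as 5 ligands (VEGFA, VEGFB, VEGFC, VEGFD and PGF), 3 receptor tyrosine kinases (FLT1, KDR and FLT4) and 2 co-receptors (NRP1 and NRP2). All 10 were found by Ensembl identifier among the 29810 genes of the deposited table. Kasumi-1 is an established human acute myeloid leukemia (AML) cell line that carries the t(8;21) translocation and its RUNX1-RUNX1T1 fusion. The cells had been incubated for 48 h with 0.25 μM I3, a histone deacetylase inhibitor (3 libraries), or with the control (3 libraries), which the methods describe as the same concentration of the solvent dimethyl sulfoxide. The compound and the time are those of the labels and methods, although a figure legend of the study gives a longer time and the deposited table is titled with the compound name I13. All libraries come from this single line, and the labels do not say whether the 3 libraries of a group were separate cultures, so that the p-values measure only the spread between these libraries.

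VEGF ligands are secreted dimers that bind receptor tyrosine kinases on the cell surface. VEGFA signals to endothelial cells mainly through KDR (VEGFR2) and binds FLT1 (VEGFR1) with higher affinity, whereas VEGFB and PGF bind FLT1 but not KDR, and VEGFC and VEGFD act on FLT4 (VEGFR3) in lymphatic vessels. NRP1 and NRP2 have short cytoplasmic tails without kinase activity and present VEGF ligands and class 3 semaphorins to KDR, FLT4 and plexins. Some leukemia cells make VEGF ligands and receptors themselves.

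The table gives 1 FPKM value for each gene and library, a number of fragments scaled for gene length and for the library total. Multiplied by the exon length in GENCODE release 29 (GRCh38), the values became whole multiples of 1 read within a tolerance of 0.1 read for 95.4% of the genes above 0. The depth that follows was 17500313 to 17798684 reads in control libraries and 17794798 to 18193368 reads in I3 libraries. These rebuilt reads are given beside each level to show what it rests on. The markers of the leukemia cells were present in every library, with MPO at a control mean of 8197 ± 412 and an I3 mean of 8015 ± 294 FPKM (SD, n = 3), KIT at 198 to 225 FPKM and CD34 at 28.9 to 38.8 FPKM. Of the 8 leukemia markers and of the 4 reference genes, among them ACTB (1129 ± 69.9 and 1106 ± 43.2 FPKM, SD, n = 3), none differed at an unadjusted p under 0.05. Of 10 endothelial markers listed, EMCN and ECSCR are not in the table. The 8 in the table summed to 12.4 to 12.7 FPKM in control cells and 11.4 to 15.5 FPKM after I3. Most of it was ESAM (9.46 to 13.4 FPKM), which encodes a junction protein, with PECAM1 at 1.54 to 1.96 FPKM. Of the other markers, TIE1 had 0.101 to 0.193 FPKM, and the rest were at or near 0. ROBO4 was listed at 0 in every library, and VWF had 1 read in all. CLDN5 had 2 reads in control libraries and 1 read after I3, and MMRN2 had 3 and 6 reads. CDH5 had 5 reads in control libraries and 0 reads after I3, too few to compare. Of the 26609 genes above 0 in any library, 7.55% had groups that did not overlap.

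The sequences before the transcription start of 4 genes are shown first, to set a ligand and a receptor that were expressed (VEGFB and FLT1) beside a ligand and a receptor with almost no reads (VEGFD and KDR). The promoter table (RefSeq, GRCh38.p14) matched 7 of the 10 genes, and VEGFA, FLT4 and NRP1 are named only. The stretches end before the first annotated exon and are written 5′ to 3′ on the strand of the gene. They are chr11:64234334-64234537 (plus strand, 204 bases) for VEGFB, chrX:15384414-15384663 (minus strand, 250 bases) for VEGFD, chr13:28495146-28495378 (minus strand, 233 bases) for FLT1 and chr4:55125596-55125845 (minus strand, 250 bases) for KDR. Capitals mark the GC box GGGCGG on either strand, the letters that factors of the SP family bind.
VEGFB: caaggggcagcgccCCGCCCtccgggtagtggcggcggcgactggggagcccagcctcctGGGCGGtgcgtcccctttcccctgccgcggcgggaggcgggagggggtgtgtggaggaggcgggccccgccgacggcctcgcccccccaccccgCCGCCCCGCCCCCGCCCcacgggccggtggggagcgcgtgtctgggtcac
VEGFD: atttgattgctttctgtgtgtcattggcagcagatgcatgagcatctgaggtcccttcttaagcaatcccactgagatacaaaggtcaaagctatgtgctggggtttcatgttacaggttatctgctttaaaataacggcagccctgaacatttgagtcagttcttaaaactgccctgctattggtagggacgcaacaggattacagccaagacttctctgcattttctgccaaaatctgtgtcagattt
FLT1: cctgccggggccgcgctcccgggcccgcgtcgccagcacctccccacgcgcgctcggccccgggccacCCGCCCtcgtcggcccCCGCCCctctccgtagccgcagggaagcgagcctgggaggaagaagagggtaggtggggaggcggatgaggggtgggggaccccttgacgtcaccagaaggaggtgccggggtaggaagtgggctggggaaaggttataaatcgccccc
KDR: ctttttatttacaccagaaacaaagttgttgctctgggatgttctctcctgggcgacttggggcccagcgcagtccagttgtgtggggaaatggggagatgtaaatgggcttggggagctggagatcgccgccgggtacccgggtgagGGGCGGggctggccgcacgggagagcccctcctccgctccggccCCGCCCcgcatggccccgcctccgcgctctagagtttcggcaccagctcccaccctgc

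The printed stretches hold 5 GC boxes before VEGFB, 2 before FLT1, 2 before KDR and 0 before VEGFD. Over the whole 250 bases before the RefSeq start, 42.6% of 35116 promoters in the same table have at least 1 GC box. These 250 bases hold 6 GC boxes for VEGFB and 3 for FLT1. For VEGFB, FLT1 and PGF the last of them, and for NRP2 all of them, lie inside the gene as annotated in GENCODE. The GC content of these 250 bases was 82.8% for VEGFB, 73.2% for FLT1, 65.2% for KDR and 43.2% for VEGFD, against a median of 58.0%. The ratio of observed to expected CpG was 0.704 for VEGFB, 0.748 for FLT1, 0.640 for KDR and 0.172 for VEGFD, with a median of 0.558. VEGFC, which also had almost no reads, had 74.0% GC and 2 GC boxes, so that among these genes both GC-rich and GC-poor promoters stood before genes with almost no reads. The core of the hypoxia response element, ACGTG, was found on neither strand in the 7 genes, and 18.5% of all promoters have it. The letters TATAAA were found once, in the FLT1 stretch, and 10.7% of all promoters have them. A match or its absence is a description of these letters only.

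**Figure D1:**
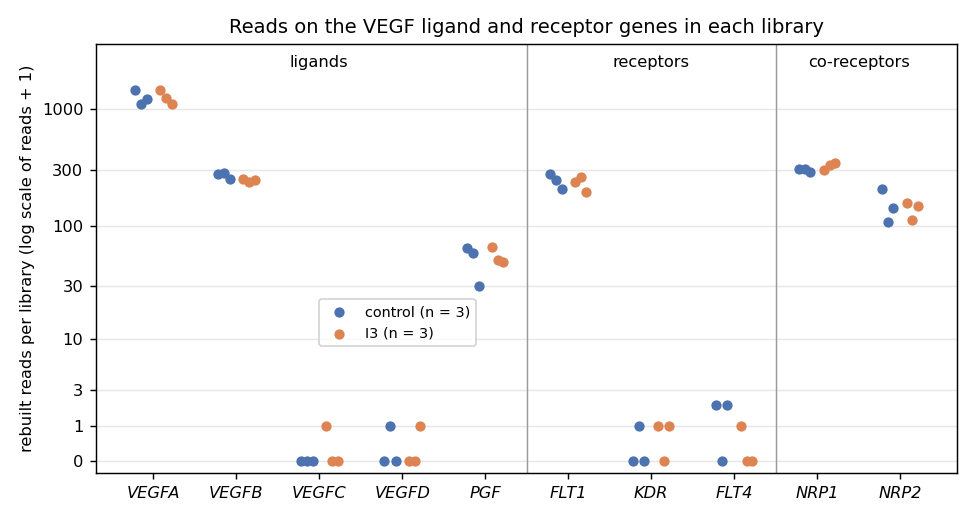
Rebuilt reads of the 10 genes in each library, on a log scale of reads + 1, with control (blue, n = 3) and I3 (orange, n = 3) libraries side by side. VEGFA lies between 1098 and 1450 reads, VEGFB, FLT1, NRP1, NRP2 and PGF between 30 and 346 reads, and VEGFC, VEGFD, KDR and FLT4 between 0 and 2 reads.

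In Kasumi-1 cells 6 of the 10 genes were expressed, and 4 had almost no reads. The expressed genes were the ligands VEGFA, VEGFB and PGF, the receptor FLT1 and both neuropilins, each with at least 30 reads in every library. KDR, FLT4, VEGFC and VEGFD had 2 reads or fewer in any library. The plot of reads by library shows this gap, and no gene lies within it. Since each library pools many cells, a lower share of expressing cells and less mRNA per cell cannot be told apart.

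Of the receptors, FLT1 made up at least 98.6% of the FPKM summed over the 3 kinases in each library. KDR (ENSG00000128052, chromosome 4, 55078259 to 55125595), the main signaling receptor of VEGFA on endothelial cells, had 0, 1 and 0 reads in control 1, 2 and 3, against 1, 0 and 1 for I3 1, 2 and 3. Over the depths of the 6 libraries, the limit that a count of 0 would allow (3 reads) stands for 0.0251 to 0.0261 FPKM of KDR. FLT4 (ENSG00000037280, chromosome 5, 180601506 to 180649624), the receptor of VEGFC and VEGFD, had 2, 0 and 2 reads in control libraries and 1, 0 and 0 reads after I3, and its limit was 0.0186 to 0.0194 FPKM. The 4 reads of FLT4 in control cells and 1 read after I3 put the ratio of control to I3 at 4.06 with an exact binomial 95% interval of 0.402 to 200.1, so a difference was not detectable at this depth. Intervals and limits of this kind cover counting error only.

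The ligands of FLT4 were equally scarce. VEGFC (ENSG00000150630, chromosome 4, 176683538 to 176792727) had 0 reads in each control library and 1, 0 and 0 reads in I3 1, 2 and 3. VEGFD (ENSG00000165197, chromosome X, 15345591 to 15384376) had 0, 1 and 0 reads in control libraries and 0, 0 and 1 reads after I3. The limit that a count of 0 would allow, over the depths of the 6 libraries, was 0.0681 to 0.0708 FPKM for VEGFC and 0.0766 to 0.0796 FPKM for VEGFD. No fold change is given for KDR, VEGFC and VEGFD, because both groups were at or under 3 reads.

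The comparison of I3 with control cells asked whether the inhibitor changed the expression of the VEGF system. It was tested with limma on log2(FPKM + 0.5) over the 12960 genes whose mean FPKM reached 0.5. A call needed an adjusted p under 0.05 together with a shift of at least 0.58 on the log2 scale in either direction. None of the expressed genes was called, as was the case for all 12960 genes (0 genes, 0.00%). The study, which worked from counts, reports genes called in both directions at these thresholds, and the reason for the difference was not tested. At an unadjusted p under 0.05, limma had 639 genes (4.93%), and voom on rebuilt reads also called 0 genes at the adjusted p. VEGFA, VEGFB, FLT1, NRP1 and NRP2 passed the minimum, and PGF, with a mean of 0.499 FPKM, was taken from a fit of 26609 genes without a minimum. On this log scale the change of genes with a low FPKM is understated.

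VEGFB (ENSG00000173511, chromosome 11, 64234538 to 64238793) had the highest FPKM of the 10 genes, above 74.6% of the protein-coding genes of the table. The table lists 10.2, 10.4 and 9.21 FPKM in control 1, 2 and 3, from 277, 285 and 249 reads, and 9.04, 8.66 and 8.72 FPKM in I3 1, 2 and 3, from 249, 238 and 245 reads. Every control library was thus above every I3 library. The groups did not overlap for 9.70% of all tested genes, and among the 5 genes of the VEGF system in the fit this held for 1, which was VEGFB. The control mean was 9.91 ± 0.614 FPKM (SD, n = 3), against 8.81 ± 0.209 FPKM (SD, n = 3) with I3.

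The log2 fold change of VEGFB was -0.16 (standard error 0.0670, 95% interval -0.32 to -0.0028), with an unadjusted p of 0.0470 and an adjusted p of 0.998 from limma with Benjamini-Hochberg adjustment. The two-sided exact permutation p was 0.1, the smallest that 3 against 3 libraries allow. The change was small, and it did not pass the threshold. The 811 and 732 reads put the ratio of I3 to control at 0.888 with an interval of 0.803 to 0.983. After removal of the GC trend of each library the log2 fold change was -0.11 (unadjusted p = 0.161 from limma), and with voom on rebuilt reads it was -0.17 (unadjusted p = 0.163). The interval contained 0 under 8 of 15 alternatives, these among them. Over all 15 the log2 fold change ranged from -0.21 to -0.11 and the adjusted p from 0.507 to 1.00.

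VEGFA (ENSG00000112715, chromosome 6, 43770184 to 43786487) is the ligand with the most reads. The levels were 5.69, 4.27 and 4.81 FPKM in control 1, 2 and 3, from 1450, 1098 and 1215 reads. They were 5.64, 4.79 and 4.18 FPKM in I3 1, 2 and 3, from 1449, 1231 and 1098 reads. The highest control and the highest I3 library were nearly equal, as were the lowest, and the groups overlapped over almost their whole range. The difference of -0.02 on the log2 scale had a 95% interval of -0.32 to 0.29, which corresponds to a fold of 0.799 to 1.23 (adjusted p = 0.999 from limma). Its sign turned without control 1 (0.08), without I3 3 (0.08) and after the GC correction. The study reports VEGF-A as markedly lower after I3 in its mRNA-seq. The FPKM values here show no such decrease, and the reason was not tested.

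PGF (ENSG00000119630, chromosome 14, 74941834 to 74955784), which encodes placenta growth factor, was the least expressed of the 3 ligands. It had 0.608, 0.547 and 0.288 FPKM in control libraries, from 64, 58 and 30 reads, and 0.621, 0.481 and 0.452 FPKM after I3, from 66, 51 and 49 reads. Control 3 was the lowest of the 6, and the other libraries of both groups lay together. The log2 fold change of 0.07 (95% interval -0.38 to 0.51, adjusted p = 0.961 from limma) became -0.085 without control 3 and -0.0060 without I3 1.

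**Figure D2:**
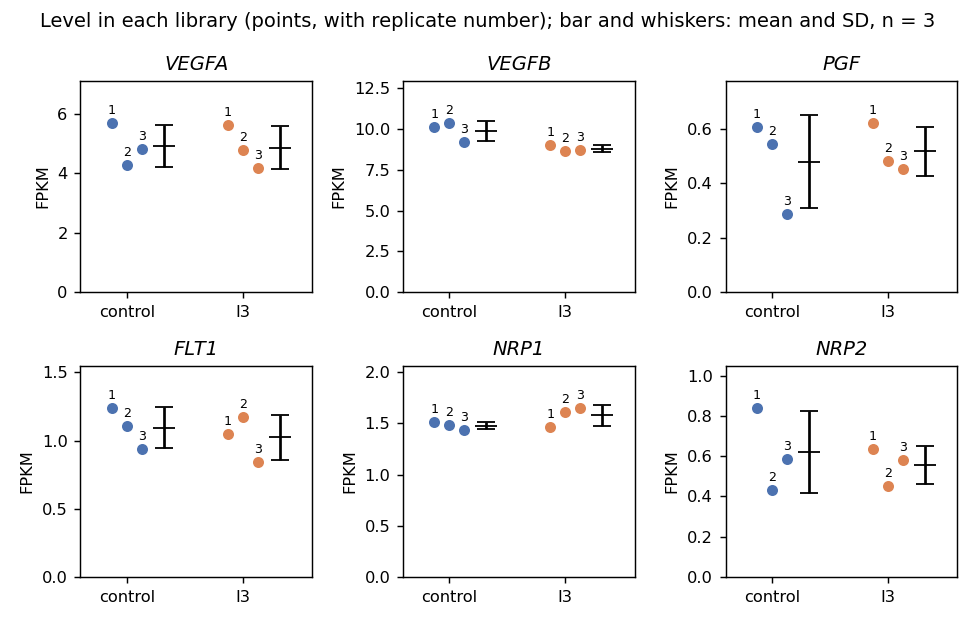
FPKM of the 6 expressed genes in each library (points, numbered by replicate) with mean and SD (n = 3) beside them, for control (blue) and I3 (orange); every axis starts at 0. The groups overlap in 5 of the 6 panels, and in the VEGFB panel the control libraries (9.21 to 10.4 FPKM) lie above the I3 libraries (8.66 to 9.04 FPKM).

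FLT1 (ENSG00000102755, chromosome 13, 28300344 to 28495145) encodes the receptor that VEGFA, VEGFB and PGF share, and also a soluble form that traps these ligands. It had 1.24, 1.10 and 0.941 FPKM in control 1, 2 and 3, from 275, 247 and 207 reads, and 1.05, 1.18 and 0.844 FPKM in I3 1, 2 and 3, from 235, 263 and 193 reads. Libraries 3 of both groups were the lowest, and the groups overlapped. The log2 fold change was -0.07 (95% interval -0.42 to 0.28, adjusted p = 0.998 from limma), and without I3 3 it was 0.02. A value for the whole gene does not separate the membrane and the soluble form.

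NRP1 (ENSG00000099250, chromosome 10, 33177492 to 33336262) varied by a smaller ratio of highest to lowest library than the other expressed genes over the 6 libraries, although within the I3 group VEGFB varied less. The levels were 1.51, 1.48 and 1.44 FPKM in control libraries, from 308, 304 and 290 reads, and 1.47, 1.61 and 1.65 FPKM after I3, from 301, 331 and 346 reads. I3 2 and I3 3 were above all controls, whereas I3 1 fell among them. The log2 fold change of 0.07 (95% interval -0.17 to 0.31, adjusted p = 0.998 from limma) was positive under each of 15 alternatives, from 0.04 to 0.11, and no adjusted p of these was under 0.796.

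NRP2 (ENSG00000118257, chromosome 2, 205681990 to 205798133), the co-receptor of VEGFC and FLT4, had 0.839, 0.433 and 0.588 FPKM in control libraries, from 206, 107 and 143 reads. After I3 it had 0.634, 0.453 and 0.581 FPKM, from 157, 112 and 147 reads. Control 1 stood above the other 5 libraries. The log2 fold change was -0.07 (95% interval -0.54 to 0.40, adjusted p = 0.998 from limma), and without control 1 it was 0.06. Exons of an antisense gene overlap NRP2 over 147 nt, NRP1 over 561 nt and VEGFA over 188 nt. The antisense genes of NRP1 and NRP2 had mean levels of 0.0484 and 0.0235 FPKM in control cells and were listed at 0 after I3. These levels are far under the minimum of 0.5 FPKM, no reads are given for them, and no difference is read from them. The libraries were stranded, but none of the sources used here says if strand entered the counting. The antisense gene of VEGFA is not among the genes of the deposited table, so no level is given for it.

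**Figure D3:**
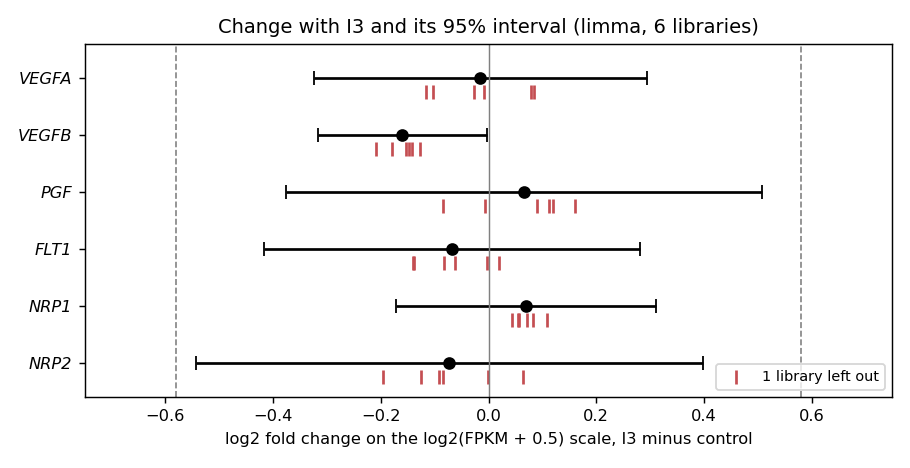
Log2 fold change of the 6 expressed genes with its 95% interval (black, limma on all 6 libraries; PGF from the fit without a minimum) and the estimates with 1 library left out in turn (red marks). Dashed lines mark 0.58 in either direction. The intervals shown, with the pseudocount of 0.5, lie within these lines, and that of VEGFB (-0.32 to -0.0028) alone does not contain 0, although it does under 8 of 15 alternatives.

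With the pseudocount of 0.5, the 95% intervals of the 6 genes lay within 0.58 on the log2 scale in either direction, with NRP2 reaching lowest (-0.54) and PGF highest (0.51). For VEGFA, VEGFB, FLT1 and NRP1 they stayed within 0.58 under each of 15 alternatives. FLT1 came closest, with a lower bound of -0.56 at a pseudocount of 0.1. For PGF and NRP2, whose FPKM is about as large as the pseudocount, the interval passed 0.58 under 7 of 13 and 6 of 14 alternatives. With a pseudocount of 0.1 it ran from -0.67 to 0.93 for PGF and from -0.88 to 0.66 for NRP2, so that a change of this size was not excluded for either gene. The exact permutation p was 0.7 for VEGFA, 0.8 for PGF, 0.6 for FLT1, 0.3 for NRP1 and 0.8 for NRP2.

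Replicate libraries differed in VEGFA, FLT1, NRP2 and PGF by more than the counting of reads gives, and in NRP1 and VEGFB by about as much as counting gives or less. The coefficient of variation of VEGFA was 14.5% in control cells and 15.0% after I3, where its reads would give 2.82% and 2.82% from counting alone. FLT1 varied by 13.6% and 16.4%, against 6.42% and 6.59% from counting. NRP2 varied by 33.1% in control cells and 16.8% after I3, against 8.11% and 8.49%. NRP1 varied by 2.56% and 6.20%, against 5.77% and 5.54%, and VEGFB by 6.20% and 2.37%, against 6.08% and 6.40%. PGF, with the fewest reads of these genes, varied by 35.4% and 17.5%, against 14.0% and 13.4%. With 3 libraries per group these coefficients are themselves imprecise. The libraries also differed in how a gene's level followed its GC content, with a rank correlation across 12939 genes of -0.446 to -0.232 in control 1, I3 1 and I3 3 and 0.262 to 0.446 in control 2, control 3 and I3 2. VEGFA, with a median GC content of 57.2% over its annotated transcripts, was highest in control 1 and I3 1 and lowest in I3 3 and control 2. The part of the GC trend in this spread was not tested.

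The order of the levels also depends on the length by which reads are divided. On the FPKM scale in control cells, VEGFB (9.91) was followed by VEGFA (4.92), NRP1 (1.48), FLT1 (1.09), NRP2 (0.620) and PGF (0.481). In each of the 6 libraries VEGFB was above VEGFA, by a ratio of 1.61 in I3 1 to 2.42 in control 2, and only NRP2 and PGF had ranges over the libraries that overlapped. The exon length behind the VEGFA value is 14431 nt, merged over 32 annotated transcripts, whereas its longest coding transcript in the basic set of GENCODE has 3535 nt. For VEGFB these lengths were 1545 nt and 1380 nt.

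When reads were divided by the longest coding transcript, an alternative chosen after seeing the data, VEGFA was at 20.1 ± 2.91 and VEGFB at 11.1 ± 0.688 length-scaled fragments, in the units of FPKM (SD, n = 3), in the control libraries. VEGFA was then above VEGFB in each library, with a ratio of VEGFB to VEGFA of 0.440 to 0.665. PGF and NRP2 also changed places, at 1.49 ± 0.526 and 1.29 ± 0.428 (SD, n = 3), within their spread. Which of VEGFA and VEGFB was the more abundant mRNA thus cannot be read from the deposited FPKM without a choice of transcript. A fixed length cancels in the change of this ratio with I3. The log2 ratio of VEGFB to VEGFA had a control mean of 1.02 ± 0.232 (SD, n = 3) and an I3 mean of 0.86 ± 0.189 (SD, n = 3) (two-sided exact permutation p = 0.5). The log2 ratio of PGF to VEGFA was -3.42 ± 0.573 and -3.24 ± 0.0720 (SD, n = 3; exact permutation p = 0.8).

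**Figure D4:**
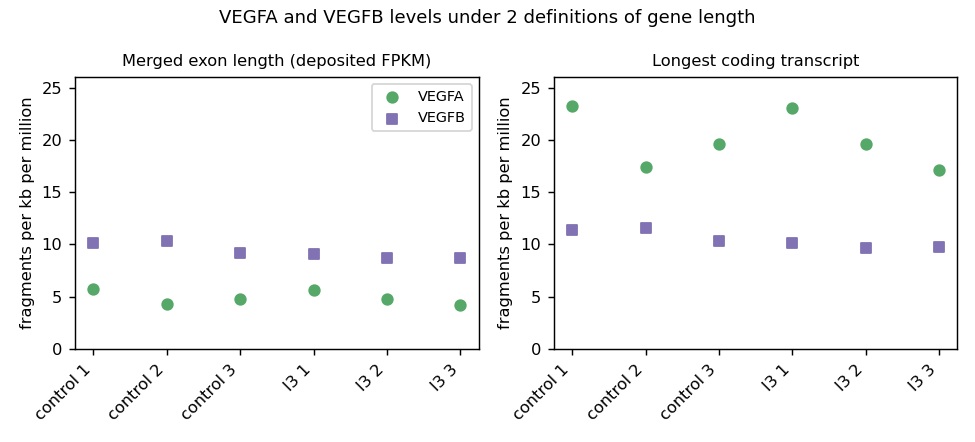
VEGFA (circles) and VEGFB (squares) in each library, on the FPKM scale, with the merged exon length of the deposited FPKM (left) and with the longest coding transcript (right). VEGFB is above VEGFA in all 6 libraries on the left, and VEGFA is above VEGFB in all 6 on the right.

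Genes that act around the receptors and ligands were then examined by lists chosen for their role. Of the 7 class 3 semaphorins, the other ligands of neuropilins, 5 are in the table and 2 passed the minimum. SEMA3G was highest with a control mean of 4.81 ± 0.621 and an I3 mean of 5.04 ± 0.271 FPKM (SD, n = 3). Of the plexins that signal with neuropilins, 3 of 5 passed, and PLXND1 had 33.2 ± 1.21 and 33.5 ± 1.20 FPKM (SD, n = 3). No gene of either list had an unadjusted p under 0.05. The median log2 fold change was 0.04 for the semaphorins and 0.05 for the plexins, beside 0.01 over all tested genes.

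Of 10 genes for the processing and release of VEGF ligands, 8 are in the table and 6 passed the minimum. None had an unadjusted p under 0.05, and the median log2 fold change was 0.02. FURIN, a protease that cleaves precursors of VEGFC and VEGFD, was the highest with a control mean of 34.6 ± 3.67 FPKM (SD, n = 3), and its log2 fold change was -0.03. Of 13 regulators of VEGFA transcription 11 passed the minimum, also none at an unadjusted p under 0.05, and the median was 0.08. VHL, which marks hypoxia-inducible factors for degradation, was the highest of them with 30.2 ± 1.07 and 32.6 ± 0.980 FPKM (SD, n = 3). In the angiopoietin and TIE system, a second ligand and receptor system of blood vessels, ANGPT1 alone passed the minimum of 5 genes listed, with 2.23 ± 0.410 and 2.53 ± 0.555 FPKM (SD, n = 3), and the receptor gene TEK had 2 reads in the control group and 1 read in the I3 group.

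**Figure D5:**
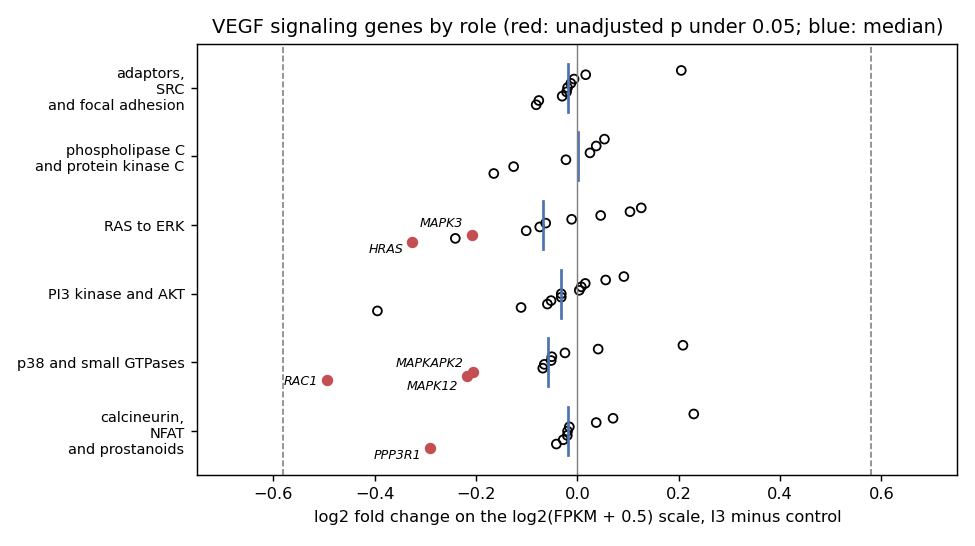
Log2 fold change (I3 minus control) of the 55 tested VEGF signaling genes in 6 role lists, with 1 point per gene, the median of each list (blue line) and dashed lines at 0.58 in either direction. Genes with an unadjusted p under 0.05 (red) are RAC1, HRAS, PPP3R1, MAPK12, MAPK3 and MAPKAPK2, all on the left of 0.

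Downstream of the receptors, 67 genes were listed in 6 groups by role, of which 66 are in the table and 55 passed the minimum. None was called at the adjusted p. At an unadjusted p under 0.05, 6 genes were lower after I3 and 0 were higher, which is 10.9% of the 55, beside 4.93% of all tested genes. These counts moved with single libraries: without control 2, without control 3 and without I3 3, 2, 3 and 2 genes were lower, and without control 1, 7 were higher. The study drew this pathway from the same libraries, so the direction is not independent evidence. Its RT-PCR and western blots of VEGF-A and ERK were separate measurements, made after a longer incubation by its legend. The study reports lower VEGF-A mRNA and protein from them, with less phosphorylated ERK and unchanged total ERK. These measurements were not examined here. The median log2 fold change of the 55 genes was -0.02.

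The 6 genes fall in 3 of the groups. Among p38 kinases and small GTPases they were RAC1, a GTPase of the actin cytoskeleton (65.7 ± 6.31 and 46.4 ± 2.37 FPKM in control and I3, SD, n = 3; log2 fold change -0.49, adjusted p = 0.454 from limma), and the kinase genes MAPK12 (5.47 ± 0.270 and 4.63 ± 0.186 FPKM, SD, n = 3) and MAPKAPK2 (22.6 ± 1.55 and 19.5 ± 0.670 FPKM, SD, n = 3). Among the genes from RAS to ERK they were HRAS (13.0 ± 1.43 and 10.3 ± 1.35 FPKM, SD, n = 3) and MAPK3, which encodes ERK1 (7.09 ± 0.604 and 6.07 ± 0.410 FPKM, SD, n = 3). In the group of calcineurin, NFAT and prostanoid genes it was PPP3R1, the regulatory subunit of calcineurin (11.1 ± 0.189 and 9.06 ± 1.58 FPKM, SD, n = 3). The other groups had none. Their most abundant genes were GRB2, an adaptor (83.3 ± 3.26 and 82.5 ± 2.71 FPKM, SD, n = 3), PRKCA, a protein kinase C (14.5 ± 0.337 and 15.1 ± 0.814 FPKM, SD, n = 3), and PIK3CD, a catalytic PI3 kinase subunit of leukocytes (30.9 ± 2.25 and 29.6 ± 2.36 FPKM, SD, n = 3).

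The genes whose levels over the 6 libraries were most like those of each gene were found by the root mean square difference of their centered log2 values. For VEGFA, FCGR1A (0.0320), MDK (0.0538) and AKIRIN1 (0.0586) were nearest among 6280 protein-coding genes with a mean of at least 5 FPKM, whose median difference was 0.182. For VEGFB they were CHKA (0.0110), FAM50A (0.0245) and ZNF768 (0.0246). Nearest to FLT1 were GADD45B (0.0275) and LSS (0.0457), against a median of 0.153. To NRP1, ZNF33B (0.0135), CLASP2 (0.0171) and STK38 (0.0184) were nearest, against a median of 0.102. To NRP2, CEP57 (0.0380), HMMR (0.0402) and SPDL1 (0.0404) were nearest, against a median of 0.195. The likeness rests on only 6 libraries, whose GC trends differ as given above, and it is a description.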

How the data were processed

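mRNA-seq of 3 control and 3 I3 libraries was analysed. The authors deposited FPKM values, 1 column per library, without counts. Per the labels, the processing notes name Trimmomatic, HISAT2, Cufflinks, HTSeq and hg38, without versions or roles, and no source used here names the annotation. Groups and replicate numbers come from the sample titles, and all 6 value columns were used.

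Reads were rebuilt from FPKM with the merged exon length of GENCODE release 29 (29703 of 29810 genes found) and the worth of 1 read in each library. Groups were compared with limma (version 3.58.1; R 4.3.3; eBayes with trend) on log2(FPKM + 0.5), with Benjamini-Hochberg adjustment over all tested genes. Genes under the minimum were taken from a fit without it. The thresholds of 0.05 and 0.58 are those of the study, which worked from counts, not used here. Permutation tests used scipy 1.17.1, pandas 2.3.3 and Python 3.11.15, and plots matplotlib 3.10.9. The limma step was tested on simulated data.

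Genes named are the 10 genes of the system, list genes at an unadjusted p under 0.05 or, where a list has none, the most abundant one, genes overlapping exons, and the 3 nearest in pattern, of which 1 is not reported here. TEK and the endothelial and leukemia markers other than MPO and ESAM were added with their values seen. The genes and lists were chosen with earlier results of these data known. Alternatives were pseudocounts of 0.1 and 1, minimums, scaling, trend, replicate block, GC correction (lowess span 0.3), voom on rebuilt reads and each library left out.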

Additional observations from a re-analysis of the deposited data

How the results depend on the processing

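No alternative that kept all 6 libraries called a gene at the adjusted p. With 1 library left out, 0 to 1 genes rose (1 without control 1) and 0 to 2 fell (2 without I3 1 and 1 without I3 2), and no gene of the VEGF system was called, whose lowest adjusted p over 93 values (6 genes, up to 16 settings) was 0.507. The number of genes at an unadjusted p under 0.05 was 1038 without a minimum FPKM, where 26609 genes were tested, and 461 to 1417 with 1 library left out, the highest without control 1. The cause was not tested. The minimum of 1 FPKM left PGF and NRP2 without a value, and the 4 genes with almost no reads had no log2 fold change to vary. VEGFA turned to 0.0060 after the GC correction. With 1 library left out, the log2 fold changes ranged from -0.12 to 0.084 for VEGFA, from -0.21 to -0.13 for VEGFB, from -0.085 to 0.16 for PGF, from -0.14 to 0.019 for FLT1, from 0.04 to 0.11 for NRP1 and from -0.20 to 0.064 for NRP2. The log2 ratio to VEGFA changed with I3 by -0.25 to -0.02 for VEGFB and by -0.14 to 0.41 for PGF. The level of VEGFB relative to VEGFA in control cells turned from 1.02 to -0.85 with the longest coding transcript, since the length of VEGFA is then smaller by a factor of 4.08. For the VEGF signaling lists, 2 to 6 genes were lower and 0 to 7 higher at the unadjusted p with 1 library left out, the median ranged from -0.044 to -0.018, and 1 gene was higher without the trend and with voom.

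The labels do not say whether same-numbered libraries form pairs, and 3 libraries per group cannot decide it. Deviations of same-numbered libraries from their group mean correlated by 0.0634, 0.151 and -0.0239 across 12960 genes. The 0.151, of control 2 with I3 2, was the highest of all pairs, whereas control 1 correlated best with I3 3 (0.101). With the replicate block 0 genes were called, 856 had an unadjusted p under 0.05, and VEGFB stayed at -0.16 (adjusted p = 0.748 from limma). Depth limits KDR, FLT4, VEGFC and VEGFD, which rest on 0 to 2 reads per library.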
